A study of Mus musculus with 21 samples.

Results

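Smoke (CS) and filtered air (AIR) were compared in the lungs of 10 mouse fetuses, those with animal numbers between F301 and M447, chosen by that number alone from the 21 arrays of the series. There were 4 CS fetuses (males M443 and M447, females F444 and F445) and 6 AIR fetuses (males M307, M386 and M421, females F301, F381 and F427), named here by sex and animal number. All were Balb/c fetuses of WT genotype taken by caesarean section at E18.5 from dams exposed, between gestational days 2.5 and 17.5, to mainstream smoke of 3R4F research cigarettes (CS) or to filtered air (AIR), although the sample labels describe the control mothers as untreated. Lung RNA was profiled in bulk on 1 Affymetrix Mouse Gene array per fetus, and the comparison is described across 22179 genes, each read from its brightest probe set. The remaining 11 arrays, with animal numbers between M121 and M207 (8 CS and 3 AIR), are used only to show where the higher numbers differ.

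What the animal numbers stand for was not given. The 4 CS numbers (M443 to M447) all lie above the 6 AIR numbers (F301 to F427), so exposure and position in the numbering cannot be told apart within these fetuses. By the methods of the study, 1 male and 1 female were taken per litter, but the labels do not tie fetuses to litters, so fetuses of 1 group may share a dam and the tests may give p-values that are too small.

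Near term the fetal lung prepares for breathing: type II cells fill with surfactant, the airspaces thin and proliferation slows down. Inhaled smoke is known to act in exposed tissue through the aryl hydrocarbon receptor, which switches on cytochrome P450 genes, and through oxidant stress, which activates NRF2. A fetus meets smoke constituents only through the placenta and the maternal blood. Interferon-stimulated genes are a shared set of antiviral and antigen-handling genes that carry short response elements near their start sites.

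Values are log2 intensities, on which a difference of 1 is a 2-fold change, and differences are CS minus AIR. The median of all values was 2.14, and genes near or below it sit at the dim end of the array. Array medians ran between 2.1 and 2.20 over the series, and the 10 arrays correlated at 0.957 to 0.968 with each other. Lung genes were bright in both groups. Sftpc, the surfactant protein C gene of type II cells, averaged 11.51 in CS and 11.52 in AIR lungs, and Ager, a type I cell gene, averaged 9.78 in CS and 9.68 in AIR lungs. Lists of neighbouring tissue stood more than 1 above the series median in 6 of the 10 arrays, 2 of CS and 4 of AIR. Heart muscle genes were high in CS M447 (list mean 5.24), AIR M307 (5.61) and AIR M421 (4.92), oesophagus genes in CS M443 (3.19) and AIR F301 (3.04), and thymocyte genes in AIR F427 (3.40). These arrays were kept, and results are also given without them. That left 2 CS lungs, both of females (F444 and F445), and 2 AIR lungs (M386 and F381). Of 55 genes past the threshold that were followed, not all described here, all 55 had the same direction and 16 still passed in those 4 lungs. With the heart, oesophagus and thymocyte list means as covariates in all 10 lungs, all 55 again had the same direction and 48 passed. The 55 were picked on these same 10 arrays, so their agreement in direction was largely set by that choice. It cannot show whether neighbouring tissue matters. In bulk lung RNA, fewer cells of a type and less RNA per cell cannot be told apart.

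Few genes separated CS from AIR lungs, and none of the 44 gene lists examined had more than 5 members past the threshold in 1 direction. At the threshold of the study, a fold change over 1.2 with an unadjusted limma p under 0.05, 1640 of 40543 probe sets passed (4.05%), 900 higher and 740 lower in CS. Among the genes, 428 were higher (1.93%) and 310 lower (1.40%), 738 in all (3.33%). Without the fold limit, an unadjusted p under 0.05 was reached by 1760 probe sets (4.34%), no larger a share than this limit gives without any difference. With limma, 0 of 40543 probe sets (0%) passed a false discovery rate of 10%, and the lowest adjusted p was 0.885. Without CS F444, and likewise without CS F445, 3 probe sets passed it. The 4 CS fetuses lay above all 6 AIR fetuses in 107 genes (0.482%) and below all of them in 95 (0.428%). For any gene, only 1 of the 210 possible regroupings separates the groups in a given direction (a fraction of 0.00476). Both shares were therefore near those of arbitrary groups. Missing overlap and low exact permutation p-values of single genes are given below as values only. The SD of the differences over genes was 0.16, compared with 0.24 in the fetuses of lower number.

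The genes with the largest differences or the lowest p were mostly dim, and some belong to families of near-identical copies. They were picked for these values on the same arrays, so their p-values are small in part by selection. Trim43c, a member of the mouse Trim43 gene cluster, had 3.63 in CS M443, 3.59 in CS M447, 3.20 in CS F444 and 3.60 in CS F445, against a range of 1.87 to 2.91 in AIR lungs (median 2.27). The groups did not overlap. The difference was 1.13 (95% interval 0.65 to 1.60, limma adjusted p = 0.885), and the exact permutation test over 210 regroupings gave a two-sided p of 0.00952, where the smallest possible is 0.00476. Trim43c has close copies in its cluster, whose probes could cross-hybridise, and the difference was 0.22 in the lower numbers.

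Tmc6, which encodes a transmembrane channel-like protein, had the lowest p of all genes. Its values were 3.48, 3.46, 3.11 and 3.49 in CS M443, M447, F444 and F445, against 2.56 to 2.90 (median 2.79) in AIR lungs. All CS lungs lay above all AIR lungs, with a difference of 0.62 (0.38 to 0.87, adjusted p = 0.885, exact permutation p = 0.00476). In the lower numbers the means of Tmc6 were 2.96 in CS and 2.96 in AIR lungs. Rorb, a nuclear receptor known from the retina and the clock, and Adra1b, an alpha-1 adrenergic receptor, were likewise above every AIR lung. Rorb had 2.12, 1.97, 1.76 and 2.01 in CS lungs, against 1.38 to 1.59 (median 1.49) in AIR lungs (difference 0.48, exact permutation p = 0.00476). Adra1b had 2.85, 2.57, 2.47 and 2.94 in CS lungs, against 1.97 to 2.34 (median 2.17) in AIR lungs (difference 0.54, exact permutation p = 0.00476). Rorb differed by 0.19 and Adra1b by -0.33 in the lower numbers, so Adra1b had the opposite sign there. The non-coding RNA 0610009L18Rik was brighter, with 4.37, 4.92, 4.69 and 4.64 in CS lungs and 3.26 to 4.19 (median 3.79) in AIR lungs, a difference of 0.89 (0.48 to 1.31, exact permutation p = 0.00952).

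Among the genes lower in CS lungs, Apol7c, an apolipoprotein L family member, fell the most. It had 1.03, 1.54, 1.81 and 0.77 in CS lungs, against 1.86 to 3.52 (median 2.16) in AIR lungs, a difference of -1.17 (-1.96 to -0.39, exact permutation p = 0.0190). The groups did not overlap, and the AIR values were highest in M307 (3.52) and F301 (3.17). Trpc6, a calcium-permeable channel of smooth muscle and other cells, had 2.54, 2.69, 2.88 and 3.39 in CS lungs, against 3.04 to 3.98 (median 3.70) in AIR lungs. CS F445 overlapped the AIR range, and the difference was -0.70 (-1.19 to -0.21, exact permutation p = 0.0333). Tcl1b1, a T-cell leukaemia family gene of the early embryo, differed by -0.83 (-1.32 to -0.34), with 1.67 to 2.33 in CS lungs and 1.98 to 3.11 (median 2.96) in AIR lungs, where only F427 lay below 2.83. The calls of Trim43c, Tmc6, Rorb, Adra1b, 0610009L18Rik, Apol7c, Trpc6 and Tcl1b1 were kept when any 1 lung was left out. Over all 12349 genes with a mean above the median of all values, 454 passed the threshold (3.68%), and of the 9830 dimmer ones 284 did, so the calls were not confined to dim genes.

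**Figure D1:**
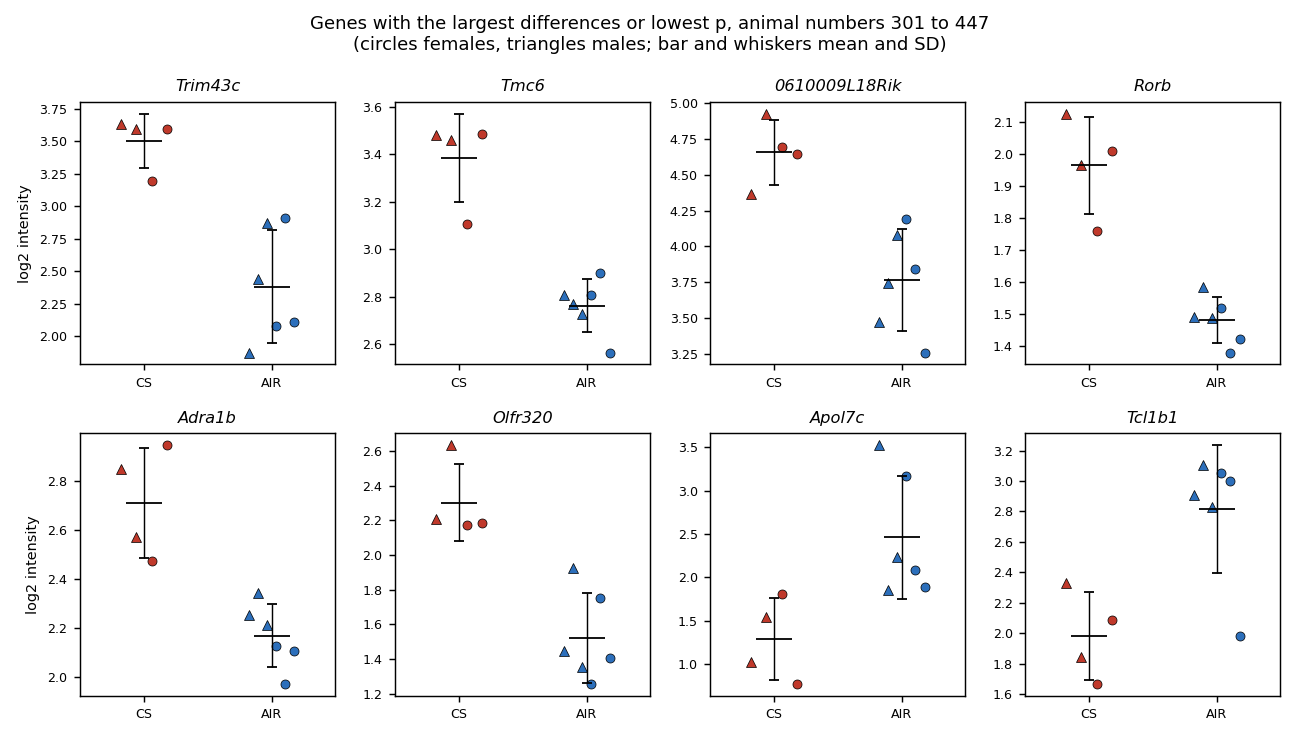
Log2 intensity of 8 genes with the largest differences or lowest p in each of the 10 fetuses (CS left, AIR right; circles females, triangles males; bars and whiskers mean and SD). CS lungs lie above every AIR lung in Trim43c, Tmc6, 0610009L18Rik, Rorb, Adra1b and Olfr320 and below every one in Apol7c, while Tcl1b1 overlaps in AIR F427 (1.98).

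Of 478 microRNA genes on the array, 13 passed higher and 8 lower in CS lungs, shares of 2.72% and 1.67% that were near those of all genes (1.93% and 1.40%). Single microRNA genes are therefore given as values, with nothing read from their number. The array reads the precursor or its host transcript at low intensity and does not measure the mature strands. For the 4 precursors described here, 1 mature strand each is shown 5′ to 3′ with the seed, bases 2 to 8, in capitals, since targets are recognised through it. The sequences are from RefSeq on GRCm38.p6, miR-483-3p at chr7:142654932-142654952 (minus strand), let-7e-5p at chr17:17830366-17830387, miR-27a-3p at chr8:84208727-84208747 and miR-20a-5p at chr14:115044183-115044205 (all plus strand). No seed is shared among them.
miR-483-3p: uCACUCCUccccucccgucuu
let-7e-5p: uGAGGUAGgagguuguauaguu
miR-27a-3p: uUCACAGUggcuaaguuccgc
miR-20a-5p: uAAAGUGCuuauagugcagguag

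Mir483, in an intron of the growth factor gene Igf2, was the brightest of them and had the largest upward difference of the 13. It had 5.66, 4.64, 3.94 and 4.86 in CS M443, M447, F444 and F445, against 3.30 to 4.92 (median 3.91) in AIR lungs. The groups overlapped, the difference was 0.77 (0.02 to 1.52) and the exact permutation p was 0.105. Its call was lost when any of 8 lungs was left out: CS M443 (0.48), CS M447 (0.82), CS F445 (0.75), AIR M386 (0.75), AIR M421 (0.63), AIR F301 (0.75), AIR F381 (0.74) or AIR F427 (0.80). Mirlet7e, a member of the let-7 family that restrains fetal growth genes, had 1.72, 1.3, 1.60 and 2.4 in CS lungs, against 1.90 to 2.99 (median 2.59) in AIR lungs, a difference of -0.79 (exact permutation p = 0.0333). A second probe set of Mirlet7e differed by 0.02. Mir27a had 1.56, 1.53, 1.3 and 1.66 in CS lungs, against 1.74 to 3.27 (median 2.04) in AIR lungs, without overlap (difference -0.71, exact permutation p = 0.0238, and -0.64 with the call lost without CS F444). Mir20a, from the proliferation-linked cluster of Mir17, had 1.34, 0.99, 1.13 and 1.43 in CS lungs, against 1.32 to 1.94 (median 1.62) in AIR lungs. Its difference was -0.42 here (exact permutation p = 0.0286, call lost without CS M447 at -0.34) and -0.54 in the lower numbers, and it passed the study threshold in both. All of Mirlet7e, Mir27a and Mir20a sit at the dim end of the array.

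Of the 44 gene lists examined, the interferon-stimulated genes had the largest share of members higher in CS lungs. Members and lists were chosen with earlier results of these data known, and this list is named as the highest of 44. Its share is therefore large in part by selection. Of 21 measured members, 5 passed higher (23.8%, against 1.93% of all genes) and 0 lower, and the list had a median difference of 0.08 (0.00 over all genes). In the lower numbers the list ran the other way, with 0 members higher and 7 lower in CS lungs and a median difference of -0.26. The 5 were Ifit2, which binds foreign RNA, Isg15, a ubiquitin-like modifier, Gbp3, a guanylate-binding protein, Irf7, a transcription factor that amplifies interferon production, and Bst2, a membrane tether of budding virus. Irf7 and Bst2 were named after their values were seen. The letters GAAANNGAA, the core of the interferon-stimulated response element, were searched on both strands of RefSeq promoters (GRCm38.p6, 250 bases before to 50 after the start). They were found in 3 of the 5 and in 10 of the 15 list members with a promoter in the table, against 8.56% of all 32851 promoters. For each list member only the first promoter given was searched, while the 8.56% counts every promoter. The list was made of genes known to carry such elements, so this excess was set by its making and says nothing about smoke. The 5 genes past the threshold did not have a larger share than the list. The 3 promoters are shown 5′ to 3′ on the strand of the gene with the matching letters in capitals, where overlapping matches run together. They are Isg15 (chr4:156200769-156201068, minus strand, 3 matches), Gbp3 (chr3:142559794-142560093, plus strand, 2 matches) and Bst2 (chr8:71537423-71537722, minus strand, 2 matches).
Isg15: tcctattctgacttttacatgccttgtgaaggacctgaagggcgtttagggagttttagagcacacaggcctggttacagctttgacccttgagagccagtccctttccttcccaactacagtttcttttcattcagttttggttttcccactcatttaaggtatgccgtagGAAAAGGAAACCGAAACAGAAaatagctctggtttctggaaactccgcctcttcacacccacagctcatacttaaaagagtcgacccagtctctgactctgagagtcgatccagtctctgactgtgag
Gbp3: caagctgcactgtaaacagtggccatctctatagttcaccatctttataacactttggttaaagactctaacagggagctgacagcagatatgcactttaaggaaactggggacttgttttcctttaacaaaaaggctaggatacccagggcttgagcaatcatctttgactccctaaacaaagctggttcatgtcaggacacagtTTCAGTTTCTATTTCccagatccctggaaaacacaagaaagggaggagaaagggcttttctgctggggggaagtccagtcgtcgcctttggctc
Bst2: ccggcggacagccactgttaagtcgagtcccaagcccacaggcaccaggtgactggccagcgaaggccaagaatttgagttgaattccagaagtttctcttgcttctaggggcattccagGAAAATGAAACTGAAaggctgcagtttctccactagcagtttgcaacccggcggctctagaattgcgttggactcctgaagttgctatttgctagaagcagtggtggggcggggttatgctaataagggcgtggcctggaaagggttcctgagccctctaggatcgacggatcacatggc

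Ifit2 has none of these letters in the 1 window searched, and any other start site of the gene was not searched. It had 4.05, 4.12, 4.06 and 4.27 in CS M443, M447, F444 and F445, against 3.56 to 3.88 (median 3.79) in AIR lungs. The groups did not overlap, the difference was 0.37 (0.15 to 0.58, limma adjusted p = 0.999, exact permutation p = 0.00476), and the call was kept when any 1 lung was left out. Isg15 had 3.18, 3.79, 3.90 and 3.52 in CS lungs, against 2.91 to 3.46 (median 3.25) in AIR lungs, a difference of 0.40 (exact permutation p = 0.0619), with CS M443 inside the AIR range. Gbp3 had 3.04, 2.0, 3.06 and 2.99 in CS lungs, against 1.77 to 2.66 (median 2.07) in AIR lungs, a difference of 0.64 (exact permutation p = 0.0524), with CS M447 at the AIR level. Irf7 had 2.16, 2.54, 3.05 and 3.34 in CS lungs, against 1.74 to 2.64 (median 2.18) in AIR lungs, a difference of 0.59 (exact permutation p = 0.0714), and both CS females lay above the AIR range and both CS males inside it. Bst2 had 3.68, 4.5, 4.46 and 4.24 in CS lungs, against 3.60 to 4.22 (median 3.81) in AIR lungs, a difference of 0.39 (exact permutation p = 0.0857).

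The lowest CS lung was M443 for Isg15, Irf7 and Bst2 and M447 for Gbp3. The mean of the 21 genes was 3.18 in CS M443, 3.06 in CS M447, 3.40 in CS F444 and 3.43 in CS F445, against 2.97 to 3.32 in AIR lungs, so only the CS females exceeded all AIR lungs. The difference of Irf7 was 0.94 within females (2 CS and 3 AIR) and 0.24 within males (2 CS and 3 AIR), and that of Gbp3 was 0.88 within females and 0.39 within males. The difference between the sexes was not tested. The number of members higher in CS lungs dropped to 1 without CS F444 or CS F445, to 2 without AIR M386 or AIR M421, and to 3 without CS M447 or AIR F381, and it was 6 in the 4 lungs left without those high in neighbouring tissue. Singly, Isg15 lost its call without CS M447 (0.34), CS F444 (0.30), CS F445 (0.43), AIR M386 (0.35), AIR M421 (0.34) or AIR F381 (0.39). Gbp3 lost it without CS M443 (0.55), CS F444 (0.54) or CS F445 (0.56), and Irf7 without CS F444 (0.50), CS F445 (0.40), AIR M386 (0.55), AIR M421 (0.52) or AIR F301 (0.50). Bst2 lost it without any lung other than CS M443 or AIR F301 (0.30 to 0.40).

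Of 17 neutrophil granule genes, 3 were higher (17.6%, against 1.93% of all genes) and 1 lower, with a median difference of 0.11. This list, too, was chosen with earlier results of these data known, so its share may be large in part by selection. In the lower numbers 0 of them were higher and 4 lower in CS lungs, with a median difference of -0.10. S100a8 and S100a9, the subunits of calprotectin, an antimicrobial protein of neutrophils that epithelium can also make, were both bright. S100a8 had 6.89, 6.36, 6.96 and 6.67 in CS M443, M447, F444 and F445, against 5.82 to 6.47 (median 6.12) in AIR lungs. Only CS M447 overlapped the AIR range, and the difference was 0.59 (0.25 to 0.93, exact permutation p = 0.00952). S100a9 had 6.04, 5.90, 6.45 and 6.53 in CS lungs, against 5.42 to 6.12 (median 5.55) in AIR lungs, a difference of 0.53 (0.11 to 0.95, exact permutation p = 0.0429), lost without CS F444 (0.45) or CS F445 (0.43). Both CS females lay above every AIR lung and both CS males within their range, and S100a9 differed by 1.0 within females and 0.05 within males. Camp, the cathelicidin gene, named after its value was seen, differed by 0.73 (exact permutation p = 0.0857) with AIR values spread between 1.29 and 3.02. Camp lost its call without CS M443 (0.60), CS F444 (0.78), CS F445 (0.60), AIR M307 (0.57), AIR M421 (0.78), AIR F381 (0.66) or AIR F427 (0.64). As a list, 1 member was higher without CS F444 or CS F445 and 5 without CS M447. Elane, the neutrophil elastase gene that marks granule-forming precursors, ran the other way at the dim end of the array. It had 1.66, 1.73, 1.43 and 1.42 in CS lungs, against 1.75 to 2.02 (median 1.83) in AIR lungs (difference -0.30, exact permutation p = 0.00476, lost without CS F444 at -0.25 or CS F445 at -0.25). Without the lungs high in neighbouring tissue none of the 17 passed, and S100a8 differed by 0.50 and S100a9 by 0.72.

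**Figure D2:**
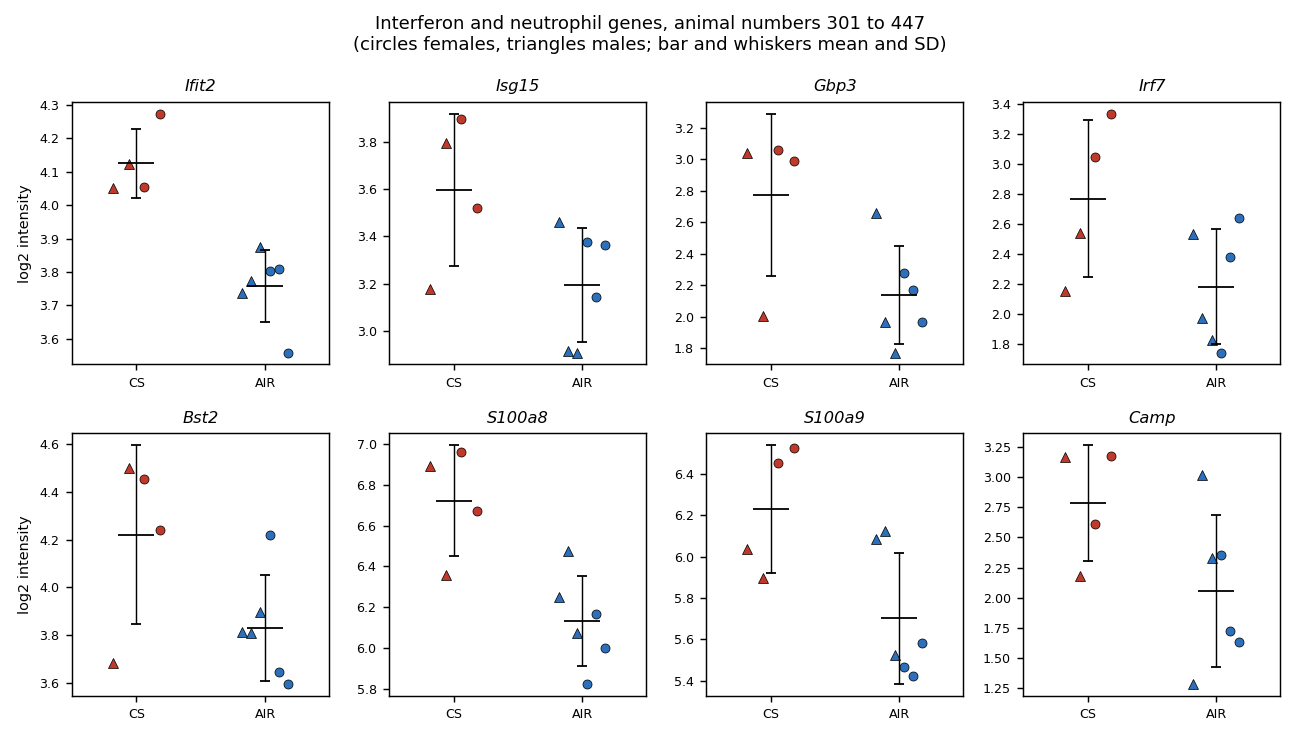
Log2 intensity of 5 interferon and 3 neutrophil genes in each of the 10 fetuses (CS left, AIR right; circles females, triangles males; bars and whiskers mean and SD). Ifit2 separates the groups, the CS females are the highest in Irf7 and S100a9, and CS M447 lies at the AIR level in Gbp3 (2.0).

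The gene lists known to respond to smoke had median differences close to 0. Of 13 aryl hydrocarbon receptor genes and targets, 27 NRF2 antioxidant genes and 22 p53 targets, 0 passed in either direction, with median differences of -0.01, -0.00 and -0.04. At 3.33% of all genes past the threshold, lists of this size can be expected to hold at most about 1 such gene, so these counts are near the background. Cyp1a1, the classical receptor target, averaged 1.37 in CS and 1.31 in AIR lungs, at the dim end of the array, and its difference of 0.06 had a 95% interval of -0.25 to 0.37. Nqo1, a quinone reductase under both pathways, differed by -0.01 (-0.36 to 0.34). The last exposure was on day 17.5 and the lungs were taken at E18.5. Of 24 glucocorticoid receptor genes and targets 1 was higher, and 0 of 20 hypoxia targets, 24 stress-response genes, 12 heat shock genes and 26 inflammation genes passed in either direction, again near the share over all genes. The median differences of these lists were 0.06, -0.11, -0.04, 0.03 and -0.01 in that order. Only 5 of the 20 hypoxia targets differed upward.

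Among lung cell types, no list had more than 2 members past the threshold apart from the neutrophil genes, and most counts were near the 3.33% of all genes. Of 11 B cell genes, 2 were higher (18.2%, against 1.93% of all genes) and 0 lower, a larger share than that of the neutrophil genes. They were Cd79b (0.32) and Vpreb1 (0.30). Only 6 of the 11 differed upward, the median difference was 0.06 and the lowest -0.38, so Cd79b and Vpreb1 do not stand for the list. In the lower numbers they differed by -0.23 and -0.40. Vpreb1 was dim in both groups (1.61 for CS, 1.31 for AIR) and was not among the genes followed with 1 lung left out. Cd79b lost its call without CS M443 (0.31), CS M447 (0.32), AIR M307 (0.29) or AIR M421 (0.26). None of 29 type II genes, 20 type I genes or 35 lung development regulators passed, with median differences of 0.03, 0.03 and -0.02. In endothelium Tie1, an angiopoietin co-receptor, was 5.12, 4.68, 4.83 and 5.29 in CS lungs, against 5.26 to 5.7 (median 5.42) in AIR lungs. CS F445 alone reached into the AIR range, and the difference was -0.46 (-0.76 to -0.16, exact permutation p = 0.00952). It was the only one of 27 endothelial genes that passed, and Pecam1, a general endothelial marker, differed by -0.03 (-0.23 to 0.17). Of the 27 endothelial genes, 21 differed upward, with a median difference of 0.06, so Tie1 does not stand for the list. Epcam, an adhesion molecule of all lung epithelium, had 4.63, 4.25, 4.48 and 5.05 in CS lungs, against 4.72 to 5.34 (median 5.04) in AIR lungs (difference -0.43, exact permutation p = 0.0286, lost without CS M447 at -0.31 or CS F444 at -0.39). In the lower numbers Epcam differed by 0.70, in the opposite direction. Fads1, a fatty acid desaturase, had 6.39, 6.21, 6.06 and 6.25 in CS lungs, against 5.82 to 6.0 (median 5.88) in AIR lungs, without overlap (difference 0.32, 0.11 to 0.54, exact permutation p = 0.00476), and was the only one of 21 lipid synthesis genes to pass. Stmn2, a microtubule regulator of neurons, had 3.97, 4.46, 4.30 and 5.14 in CS lungs, against 3.69 to 4.0 (median 3.92) in AIR lungs (difference 0.59, exact permutation p = 0.00952), and was highest in CS F445. With Prph, a neuronal filament gene (0.37), it made 2 of 19 neuroendocrine and neural genes higher (10.5%, against 1.93% of all genes). Prph lost its call without any lung other than AIR F301 or AIR F381 (0.29 to 0.39). Nr4a2, an immediate early nuclear receptor, had 2.64, 2.80, 2.86 and 3.37 in CS lungs, against 1.96 to 2.61 (median 2.42) in AIR lungs, without overlap (difference 0.55, exact permutation p = 0.00952). Klf6, a zinc finger factor of the same list, differed by 0.32, so 2 of 25 immediate early genes were higher, and lost its call without CS M443 (0.30), CS F444 (0.28) or AIR M421 (0.26). One gene each was higher among 31 ciliated (Dnaic1), 24 airway secretory (Bpifb1) and 34 matrix and mesenchyme genes (Plin2). Dnaic1 lost its call without CS F445 (0.34) and Plin2 without CS M443 (0.32), CS F444 (0.36), CS F445 (0.26), AIR M307 (0.32), AIR M386 (0.28) or AIR F427 (0.30). The calls of Tie1, Fads1, Stmn2 and Nr4a2 were kept when any 1 lung was left out.

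A gene used to normalise other assays moved too. Gusb, which encodes the lysosomal enzyme beta-glucuronidase, had 4.43, 4.33, 4.60 and 4.67 in CS lungs, against 3.64 to 4.44 (median 3.97) in AIR lungs. CS M443 and CS M447 lay just inside the top of the AIR range, and the difference was 0.52 (0.15 to 0.89, exact permutation p = 0.0286), while the means in the lower numbers were 4.12 in CS and 4.12 in AIR lungs. It was 1 of 11 reference genes measured (9.09%, against 1.93% of all genes higher), and no other passed. The median difference of the 11 was 0.01. Rpl6, a protein of the large ribosomal subunit with many processed copies in the genome, had 3.77, 3.71, 3.73 and 4.01 in CS lungs, against 3.19 to 3.66 (median 3.39) in AIR lungs, a difference of 0.41 (exact permutation p = 0.00476). Rpl6 and Rps14 were the only 2 of 32 ribosomal genes that passed (6.25%, against 1.93% of all genes higher). The list had a median difference of 0.01 and a median level of 8.64. Rpl6 averaged only 3.57 and Rps14 1.59 over the 21 arrays, and the copies make the Rpl6 signal uncertain. Gusb and Rpl6 kept their calls when any 1 lung was left out.

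Of 7 measured genes that the study text names for its mRNA arrays, 1 passed here, where 3.33% of all genes did. Mybl2, a cell-cycle transcription factor, had 3.15, 3.08, 3.29 and 3.0 in CS lungs, against 3.35 to 3.97 (median 3.54) in AIR lungs. All CS lungs lay below all AIR lungs, with a difference of -0.47 (-0.76 to -0.18, exact permutation p = 0.00952), compared with 0.59 in the lower numbers. A dimmer probe set of Mybl2 (mean 2.25) differed by 0.13 here, so the probe sets disagree in sign. Igf1, the insulin-like growth factor, had 4.75, 4.06, 4.26 and 4.03 in CS lungs, against 3.78 to 4.56 (median 3.98) in AIR lungs, a difference of 0.19 (-0.22 to 0.60, exact permutation p = 0.348). Its binding protein gene Igfbp3 differed by -0.03 (-0.55 to 0.49). For E2f7, E2f8, Cebpa and Srebf1 the differences were 0.16, 0.19, -0.06 and -0.09, and none of these 4 passed. In the lower numbers all 7 passed, 4 higher and 3 lower in CS lungs, where 9.33% of all genes did. The study named these genes from all 21 arrays, which include the 11 of the lower numbers. Genes named in that way and flat here have to differ there, so this count was largely set by the choice. There Igf1 differed by 0.81, E2f7 by 0.50, E2f8 by 0.83, Igfbp3 by -1.19, Cebpa by -0.59 and Srebf1 by -0.48. The effects differed between the ranges at the study threshold for 5 of the 7, Mybl2 (-1.07), Igf1 (-0.62), Igfbp3 (1.16), E2f8 (-0.64) and Cebpa (0.53), and not for E2f7 (-0.34) or Srebf1 (0.38). Over all genes they did so for 7.66%, and the choice of the 7 bears on this count too.

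The differences in the higher numbers were set beside those in the lower numbers. Across the 22179 genes the differences in the ranges, which share no array, correlated at r = 0.020, and at r = 0.026 over the 12349 brighter genes. Genes are not independent replicates, so no p is given. In the lower numbers 2070 genes (9.33%) passed the threshold. Of these, 27 passed here in the same direction, which is 0.122% of all genes, 3.66% of the genes called here and 1.3% of those called there. Another 33 (0.149%) passed in opposite directions. Since 9.33% of all genes passed in the lower numbers, in either direction, and 3.33% here, these shares were no larger than the background, and the genes passing in both ranges are given as values only.

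The 17 genes higher in both ranges included 3 members of the DNA replication list (Rfc5, Gins4 and Chaf1b). In the lower numbers 32 of the 41 genes of that list were higher, so most of its members called here would be shared, and the effect was more negative here for 18 of the 41 and more positive for 0 (median -0.50). Rfc5, a subunit of the clamp loader, had 4.58, 4.54, 4.47 and 4.80 in CS M443, M447, F444 and F445, against 3.90 to 4.75 (median 4.09) in AIR lungs, where F427 was the high one. Its difference was 0.43 here (0.06 to 0.79, exact permutation p = 0.0381) and 0.70 in the lower numbers. Gins4, part of the replicative helicase, had 6.48, 6.38, 6.30 and 6.27 in CS lungs, against 5.82 to 6.24 (median 6.11) in AIR lungs, without overlap (0.29 here, exact permutation p = 0.0143, and 0.52 in the lower numbers). Chaf1b, a histone chaperone of replicating chromatin, had 2.69, 2.90, 2.34 and 2.62 in CS lungs, against 1.85 to 2.48 (median 2.39) in AIR lungs (0.38 here and 0.54 in the lower numbers). Stil, required for centriole duplication, had 4.38, 3.49, 4.31 and 3.91 in CS lungs, against 2.93 to 3.93 (median 3.51) in AIR lungs (0.58 here and 0.75 in the lower numbers). Ercc6l, a helicase of mitotic chromatin, differed by 0.44 here and 0.64 in the lower numbers. Pknox1, a homeobox factor, and Tnfaip8l1, related to the TNF-induced protein TNFAIP8 and named after its value was seen, were also higher. Pknox1 had 3.18 to 3.57 in CS lungs and 2.78 to 3.29 in AIR lungs (0.36 here and 0.40 in the lower numbers, exact permutation p = 0.0143 here), and Tnfaip8l1 had 4.34 to 4.81 in CS lungs and 3.78 to 4.27 in AIR lungs (0.52 here and 0.32 in the lower numbers, exact permutation p = 0.00476 here), the second without overlap.

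The calls of Pknox1 and Tnfaip8l1 were kept when any 1 lung was left out. The replication genes depended on single lungs: Rfc5 lost its call without CS F445 (0.36), AIR M307 (0.38), AIR M421 (0.39) or AIR F381 (0.38), and Gins4 without CS M443 (0.24), AIR M386 (0.26) or AIR F301 (0.24). Chaf1b lost it without CS M443 (0.36), CS M447 (0.29), CS F445 (0.38), AIR M307 (0.33) or AIR F381 (0.29), and Stil without CS M443 (0.46), CS F444 (0.48), AIR F301 (0.48) or AIR F381 (0.51). Ercc6l lost it without CS M447 (0.34), CS F444 (0.33), AIR M307 (0.42), AIR M386 (0.44), AIR F301 (0.36) or AIR F381 (0.39). As a list, 3 of 41 DNA replication genes (7.32%, against 1.93% of all genes) were higher in CS lungs and 0 lower, and the list had a median difference of 0.09. It had 1 member higher without CS M443, CS F445, AIR M307 or AIR F381 and 5 without AIR F427.

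The 10 genes lower in both ranges included Csf1r and Ms4a7, known from macrophages, and Clec14a, known from endothelium. Csf1r, the macrophage colony-stimulating factor receptor, had 4.17, 4.08, 3.72 and 3.83 in CS M443, M447, F444 and F445, against 4.03 to 4.76 (median 4.37) in AIR lungs. The CS females lay below all AIR lungs and the CS males within their range, with a difference of -0.44 (-0.82 to -0.06, exact permutation p = 0.0571) here and -0.59 in the lower numbers. Ms4a7, a membrane protein of macrophages, had 1.87, 1.83, 2.32 and 1.85 in CS lungs, against 2.26 to 2.69 (median 2.54) in AIR lungs (-0.52 here, exact permutation p = 0.0190, and -0.40 in the lower numbers). The 23 macrophage genes as a list had 1 member higher (Gpnmb) and 1 lower (Csf1r), with a median difference of 0.04. Clec14a, an endothelial lectin, had 5.01, 4.57, 4.82 and 5.09 in CS lungs, against 4.95 to 5.54 (median 5.21) in AIR lungs (-0.35 here, exact permutation p = 0.0429, and -0.33 in the lower numbers). The 27 endothelial genes as a list had a median difference of 0.06 here, and 21 of them differed upward. Dubr, a long non-coding RNA, had 4.30, 4.12, 4.03 and 4.61 in CS lungs, against 4.59 to 4.95 (median 4.70) in AIR lungs, with -0.45 in both ranges (exact permutation p = 0.0143 here). Zmat4, a zinc finger gene, had 2.81, 3.17, 3.29 and 2.79 in CS lungs, against 3.30 to 3.74 (median 3.49) in AIR lungs, without overlap (-0.49 here, exact permutation p = 0.00476, and -0.40 in the lower numbers). Mapkbp1, a scaffold of kinase signalling, differed by -0.45 here and -0.52 in the lower numbers.

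Ms4a7, Dubr and Zmat4 kept their calls when any 1 lung was left out. Csf1r lost its call without CS F444 (-0.36), CS F445 (-0.40), AIR M421 (-0.38), AIR F301 (-0.37) or AIR F381 (-0.40). Clec14a lost it without CS M447 (-0.25), CS F444 (-0.34), AIR M307 (-0.33), AIR M386 (-0.34) or AIR F381 (-0.29), and Mapkbp1 without CS M443 (-0.42), CS F445 (-0.44), AIR M307 (-0.41), AIR M386 (-0.35) or AIR F301 (-0.43).

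**Figure D3:**
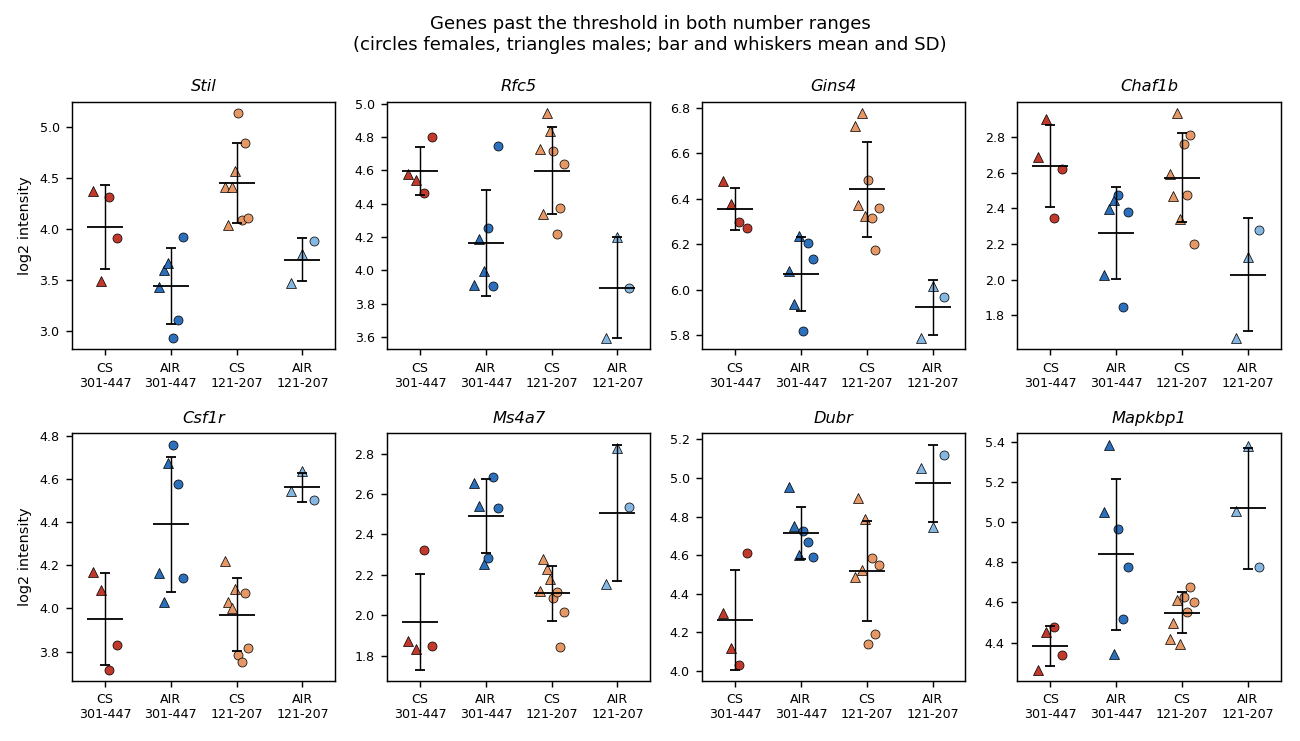
Log2 intensity of 8 genes past the threshold in the same direction in both number ranges, in each of the 21 fetuses (CS left of AIR in each range; circles females, triangles males; bars and whiskers mean and SD). Stil, Rfc5, Gins4 and Chaf1b average higher and Csf1r, Ms4a7, Dubr and Mapkbp1 lower in CS lungs of each range, and the lower numbers hold only 3 AIR lungs.

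The difference between the effects of both ranges was tested in 1 fit of all 21 arrays. It passed the study threshold in 1700 genes (7.66%), 1017 with a more positive and 683 with a more negative effect in the higher numbers, and at a false discovery rate of 10% in 19 of 40543 probe sets (0.0469%), of which 16 are genes counted here. When 1 of the 21 lungs was left out, that count stayed within 1.5 times of 19 only without CS M191 (15), AIR M307 (22) or AIR F301 (23). It was 36 without CS M121, 0 without CS M443, CS F444 or AIR M187, and 2 to 12 without any other lung. Of 45 mitosis genes, 36 had a more negative effect in the higher numbers and 0 a more positive one, and of 29 type II genes 22 had a more positive one and 0 a more negative one. The mean of the mitosis genes was 4.84 in CS and 4.77 in AIR lungs of the higher numbers, and 5.33 in CS and 4.41 in AIR lungs of the lower numbers. Type II genes averaged 7.56 in CS and 7.52 in AIR lungs of the higher numbers, and 7.04 in CS and 7.91 in AIR lungs of the lower numbers. For both lists, all 4 CS lungs of the higher numbers stood between the group means of the lower numbers. So did the AIR lungs of the higher numbers, apart from F301 in the mitosis list (4.36). Mitosis means spread over 4.36 to 5.16 in the 6 AIR lungs, against 4.77 to 4.91 in the 4 CS lungs.

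Insig1, a brake on sterol synthesis, had the lowest p for the difference between the effects. It had 7.30, 7.26, 7.54 and 7.42 in CS lungs, against 7.0 to 7.35 (median 7.20) in AIR lungs of the higher numbers, a difference of 0.18. In the lower numbers it averaged 6.50 in CS and 7.63 in AIR lungs, a difference of -1.13, and the effects differed by 1.31 (SE 0.19, limma adjusted p = 0.0447). Hdc, which makes histamine, differed by 0.12 here and -1.35 in the lower numbers (effects apart by 1.47, adjusted p = 0.0474). Klf4, a factor of epithelial differentiation, differed by 0.14 here and -0.92 there, and Sftpd, the surfactant protein D gene, by 0.29 here and -1.39 there. S100a8, described above, reversed, with 0.59 here and -1.03 there (effects apart by 1.62, adjusted p = 0.0606), and Isg15 did likewise, with 0.40 here and -0.88 there (effects apart by 1.28, adjusted p = 0.0999). Col4a4, a basement membrane collagen chain, had 3.92 in CS and 3.46 in AIR lungs here and 3.32 in CS and 3.97 in AIR lungs there (0.45 here and -0.66 there). Tcf19, a cell-cycle gene, was the only one of the 16 with a more negative effect here, at 0.08 here and 1.01 in the lower numbers (effects apart by -0.93, adjusted p = 0.0606).

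**Figure D4:**
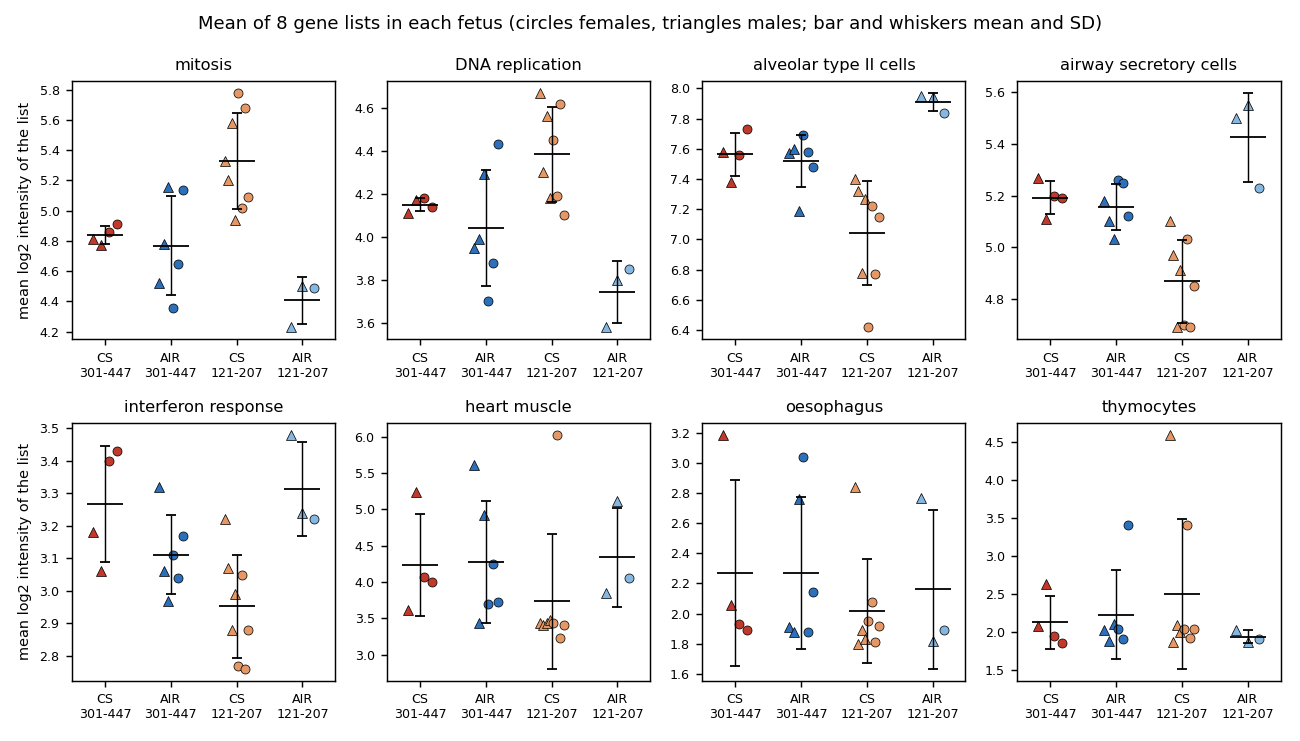
Mean log2 intensity of 8 gene lists in each of the 21 fetuses (CS left of AIR in each range; circles females, triangles males; bars and whiskers mean and SD). Mitosis, replication, type II and airway secretory means of CS and AIR overlap in the higher numbers and stand apart in the lower ones, and the heart, oesophagus and thymocyte lists are high in single lungs of either exposure.

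**Figure D5:**
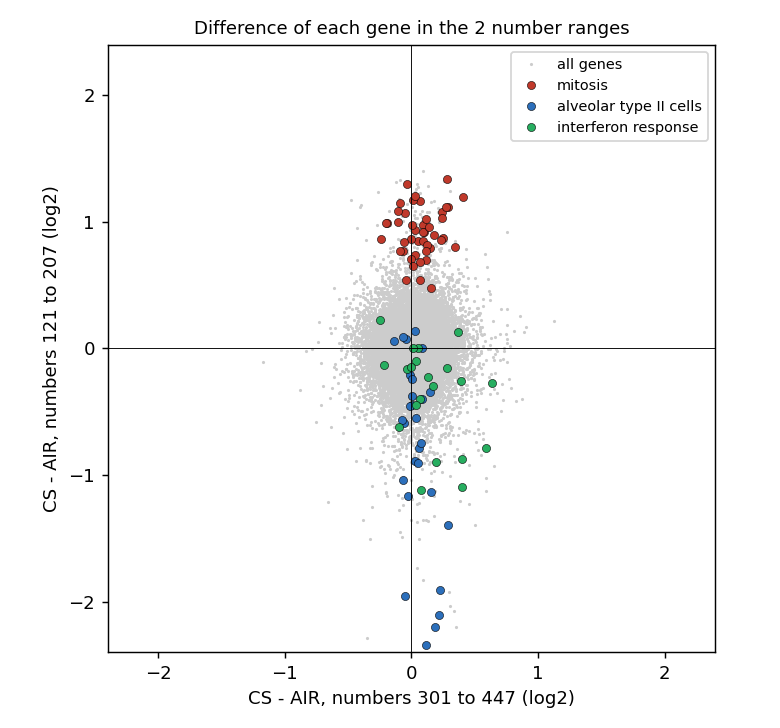
CS minus AIR of each of 22179 genes in the higher numbers (horizontal) against the lower numbers (vertical), both on the log2 scale, with 3 lists coloured and 2 genes outside the plotted limits. Mitosis genes spread upward and type II genes downward along the vertical axis while staying near 0 on the horizontal one, and the interferon genes furthest to the right lie at or below 0 vertically, apart from Ifit2 (0.37 here, 0.13 there).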

How the data were processed

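RNA of 21 fetal mouse lungs was hybridised to Affymetrix Mouse Gene 2.1 ST arrays. The deposited values are log2 intensities that the authors obtained by RMA (background correction, quantile normalisation and summary per probe set). The submitters' processing notes name Affymetrix Expression Console 1.3.0.187. No detection calls were used, so dim values may be background, and the number of arrays limits the precision. Of 41345 probe sets, 802 redundant ones were removed, which left 40543. One gene symbol was given for 23521 probe sets, several for 1820 and none for 16004. By gene number, 23328 of those with 1 symbol were found in the RefSeq gene table. Each of 22179 genes was read from its brightest probe set over the 21 arrays.

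CS and AIR were compared in the 10 arrays with limma 3.58.1 (R 4.3.3, moderated statistics, Benjamini-Hochberg adjustment over all probe sets), and the effects of both number ranges in 1 fit of 21 arrays. Exact permutation tests were two-sided. The code was tested on simulated data. Alternatives were sex as a covariate, other variance models, normalisations, filters and thresholds, and leaving out each lung. Described genes were taken from those with the largest differences or lowest p, up to 3 leading members of each of 44 lists, genes past the threshold in both ranges, those differing between ranges, genes the study text names, and sex-linked and other-tissue markers. Members and lists were chosen with earlier results of these data known. Sequences came from RefSeq (GRCm38.p6).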

Additional observations from a re-analysis of the deposited data

Results flagged for a closer look

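In 7 of 138 groups of 4 or 6 lungs looked at, 1 lung stood far from the others of its group, and some such gaps arise by chance. Gbp3 was low in CS M447 (2.0, next value 2.99), Trim43c in CS F444 (3.20, next 3.59) and Tmc6 in CS F444 (3.11, next 3.46). Ms4a7 was high in CS F444 (2.32, next 1.87) and Olfr320 in CS M447 (2.63, next 2.21). Tcl1b1 (1.98, next 2.83) and Klf4 (4.5, next 4.88) were low in AIR F427, the lung with high thymocyte genes.

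The effect of smoke differed between the number ranges for 16 genes at a false discovery rate of 10% (limma, all 21 arrays). The difference of the effects, higher numbers (F301 to M447) minus lower numbers (M121 to M207), was 1.31 for Insig1, 1.47 for Hdc, 1.04 for Acoxl, -0.93 for Tcf19, 1.62 for S100a8, 1.11 for Col4a4, 1.05 for Klf4 and 2.13 for Pon1. It was 1.05 for Kcnj15, 1.42 for Car8, 1.68 for Sftpd, 1.15 for Pde7b, 1.14 for Il33, 2.41 for Car4, 1.21 for Zdhhc14 and 1.28 for Isg15. Of these, S100a8, Col4a4, Isg15, Kcnj15 (0.37 in the higher and -0.68 in the lower numbers) and Zdhhc14 (0.53 and -0.67) passed the study threshold in both ranges with opposite signs.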

How the results depend on the processing

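The 1640 probe sets at the study threshold became 855 with a filter on dim probe sets, 899 with 1 probe set per gene and 512 at a fold over 1.5, and ran between 1591 and 1870 with 1 lung left out. The count of 0 at a false discovery rate of 10% was 0 to 3 with 1 lung left out and 0 in every other alternative run. The 2738 probe sets whose effect differed between the ranges became 1791 with 1 probe set per gene and 1469 at a fold over 1.5, and 2367 to 2903 with 1 lung left out. The 19 at a false discovery rate of 10% became 7 with sex as a covariate, 34 with the dim filter, 53 with 1 probe set per gene, 12 with trend and robust variances, 7 after quantile normalisation and 32 with array weights, and 0 to 36 with 1 lung left out. The cause was not tested. Leaving out lungs high in neighbouring tissue, or using those list means as covariates, was chosen after seeing the data. Without those lungs Igfbp3 (0.353) and Cebpa (0.0455), neither past the threshold, changed sign. With 1 lung left out Igfbp3 ran between -0.180 and 0.126, Cebpa between -0.128 and 0.041 and Srebf1 between -0.195 and 0.00915. Of the 55 followed genes past the threshold, 27 kept it when any 1 lung was left out, 52 with sex as a covariate and 48 with the tissue covariates. The 55 include some genes not described here, such as Cyp4f18 and Arap2. They leave out some that are named here, such as Gpnmb and Rps14. Without moderated variances 2 of the 5 interferon genes passed. No paired analysis was possible, because CS and AIR fetuses came from differently exposed dams. The replicate numbers run within each exposure and match no CS lung to an AIR lung.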
